A study of Mus musculus with 2 samples.

Results

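The 9 transcription factor and receptor genes of muscle progenitors described here were measured in embryonic mouse diaphragm: Pax3, Pax7, Msx1, Msc, Meox1, Meox2, Lbx1, Tcf21 and Met. They were chosen by name, and each was read from every probe set whose only gene symbol in the array annotation was that gene. This gave 17 probe sets of 45101 on the array, with at least 1 for each of the 9 genes, and 13 of the 17 had a mean signal above the floor used here (log2 5.52, the 40th percentile of all probe sets). Signals are on the log2 RMA scale, and each difference is the signal on the knockout-labelled array minus that on the wild-type-labelled array.

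The samples were diaphragm muscle of C57/BL6 embryos at stage E18.5, with 1 array of genotype RP58+/+ (wild type) and 1 of genotype RP58-/- (knockout). RP58 is the older name of Zbtb18, a zinc finger repressor of transcription. The comparison asks how muscle RNA differs without it. How many embryos were pooled, and which part of the gene the RP58- allele lacks, are not given in the sources used here. With 1 array per genotype there is no spread between embryos, no test and no p-value, and no difference below has a replicate check.

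The spread that could be measured was that between probe sets of the same gene, a pooled SD of 0.28 over 5675 genes, which covers neither embryos nor dissection. A gene was counted as lower or higher when the difference at its brightest probe set reached 1.5-fold, which is 0.58 on the log2 scale. A pair of facts about the whole series touches every value. The probe set of Zbtb18 was at 8.91 on the wild-type-labelled array and 9.21 on the knockout-labelled array, so the RNA read by that probe set did not separate the genotype labels. The signal of Xist, the silencing RNA of the female inactive X, was 11.47 against 6.96, so the samples also differed in sex-linked RNA, which cannot be told apart from genotype here. Of 23 skeletal muscle markers, 22 lay above the floor, so the genes of the labelled tissue were present. Of these 22, 18 were lower on the knockout-labelled array and 0 higher (median -1.41), whereas 10 of 17 liver genes were higher and 0 lower (median 0.82). Over all 14093 genes above the floor, 6.51% were lower and 3.83% higher by the same rule. Each list count below is to be read beside these shares. In bulk tissue, fewer cells of a type and less RNA per cell cannot be told apart.

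Skeletal muscle of the body, limbs and diaphragm descends from somite cells that express the paired box factors Pax3 and Pax7. Meox1 and Meox2 act in the somite, and Lbx1 and the receptor tyrosine kinase Met mark the cells that leave it and migrate, following hepatocyte growth factor (Hgf) from the mesenchyme on their path to limb bud and diaphragm. Msx1 holds cells in an undifferentiated state, and Msc (also called MyoR) and Tcf21 (capsulin) are bHLH repressors that act in precursors of head muscle and in mesenchyme. None of these genes belongs to muscle progenitors alone: Met is also made in liver and lung epithelium, Meox2 in endothelium and fibroblasts, Tcf21 in mesothelium and fibroblasts, and Pax3 and Msx1 in neural crest.

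Meox2 was the 1 member of 9 that was lower by the size rule, and 0 members were higher. Among all 14093 genes above the floor, 6.51% were lower and 3.83% higher by the same rule, so these counts lie near the background. Of the 13 probe sets of the 9 genes above the floor, 2 passed the rule, both of Meox2, against 9.84% of all named probe sets above the floor in either direction. The median difference over the 9 genes was 0.12, beside -0.0032 over all genes. Of the 9, 7 were above 0 and 2 below, and of all genes 49.4% were above 0. Msx1 and Pax3, counted among the 7, each had a probe set under the floor with a negative difference (-0.12 and -0.17). The 7 include Lbx1 at 0.03, which was at -0.16 with the mean over its probe sets and at -0.35 without _a_at probe sets. Of the 9, 5 differed by less than the SD between probe sets, as did 64.8% of all genes. All differences are relative to the median gene. Scaling to the median of the 24 poly-A control probe sets would raise each by 0.75, and Meox2 would then stand at 0.013. Those control differences ran from -1.17 to -0.46, and several of the probe sets read the same control RNA. The size of that shift is therefore uncertain, as is the sign of Meox2 on that scale.

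**Figure D1:**
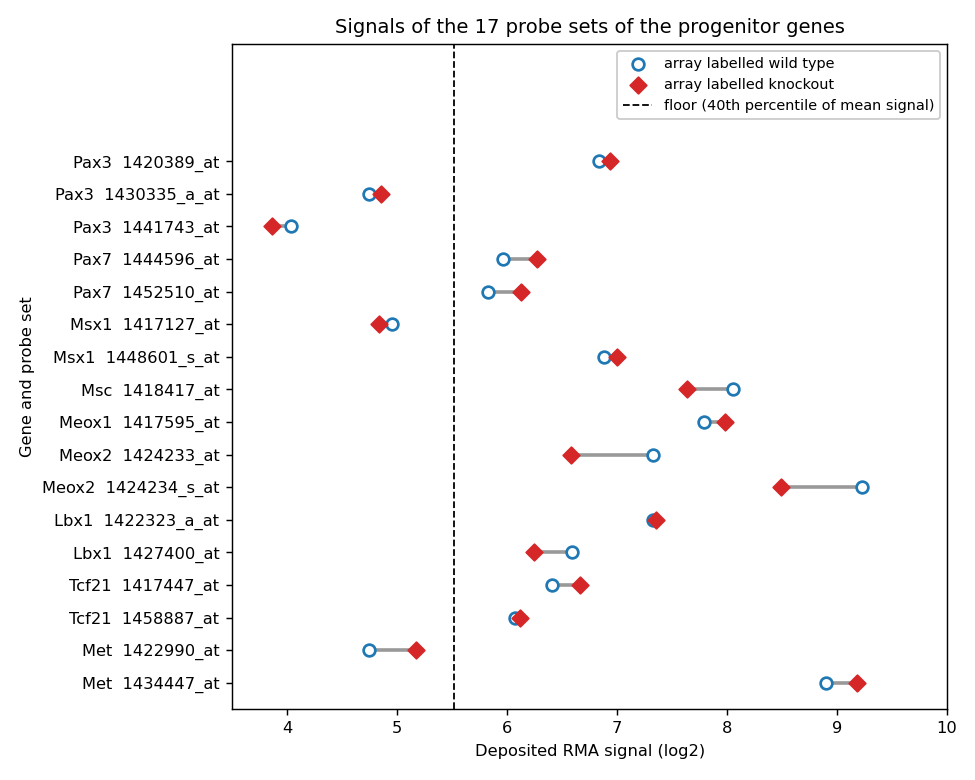
Deposited log2 RMA signal of each of the 17 probe sets (rows) on the wild-type-labelled array (open circles) and on the knockout-labelled array (filled diamonds), joined by a grey line. The dashed line is the floor at 5.52. Both Meox2 probe sets lie 0.74 lower on the knockout-labelled array on the deposited scale. Scaled to the median of the poly-A controls, the brighter of them would be 0.013 higher. The 4 probe sets left of the floor belong to Pax3, Msx1 and Met.

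Meox2, a homeobox factor needed for limb muscle patterning, had 2 probe sets. The brighter one was at 9.22 on the wild-type-labelled array and 8.49 on the knockout-labelled array, a difference of -0.74 (1.66-fold lower). The other was at 7.32 and 6.58, again a difference of -0.74. The probe sets differed from each other by 0.0065, against a median of 0.21 between the 2 brightest probe sets over the 5675 genes that have them, but both were designed from the same source sequence and are not independent readings. The size of the difference was 2.65 times the SD between probe sets. Of all genes, 578 (4.1%) had a lower difference, and of the 2376 genes within 0.5 of its mean signal, 5.6% were at or below it. Its paralogue Meox1, which acts with it in the somite, was at 7.79 and 7.98, a difference of 0.19 from its only probe set. The difference of Meox2 lay 0.93 below that of Meox1.

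Markers of cells that also make Meox2 differed as follows. Of 14 endothelial genes above the floor, 2 were lower and 0 higher (6.51% and 3.83% of all genes), with a median of -0.19. The lower ones were the apelin receptor gene Aplnr (-0.95) and the junction gene Cldn5 (-0.69). The other Aplnr probe set, at -0.53, did not pass the size rule. Without _s_at, _x_at and _a_at probe sets, 1 endothelial gene was lower. The log2 of the summed endothelial signal was 11.93 on the wild-type-labelled array and 11.62 on the knockout-labelled array, and Tie1 was under the floor on both. Of 16 connective tissue genes, 2 were higher (Osr1 and Fbln2) and 2 lower (Prrx1 and Tcf4). The Tcf4 read here is the E protein gene, which is also counted among the bHLH partners below. It is not taken here as a marker of connective tissue, although the counts and the median of this list include it. Their median was 0.11, the log2 sums were 15.72 and 15.81, and Osr2 was under the floor on both arrays. The log2 summed signal of the 22 muscle fibre genes was 17.01 and 16.00. The part of any of these cell types in the Meox2 difference was not tested.

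The RefSeq promoters (assembly GRCm38.p6, from 250 bases before to 50 after the start) were matched by symbol for 5 of the 9 genes: Pax7, Msx1, Meox2, Tcf21 and Met. Those of Meox2, which differed most, and of Pax7 and Met, the members furthest above 0, are shown beside the letters of motifs for RP58 and for bHLH factors, although Pax7 and Met did not pass the size rule. Capitals mark matches to the E-box, CANNTG, the letters to which bHLH factors such as MyoD, Msc and Tcf21 bind. Sequences run 5′ to 3′ along the strand of the gene. Meox2 is on the plus strand at chr12:37108290-37108589, Pax7 on the minus strand at chr4:139832919-139833218, and Met on the plus strand at chr6:17463707-17464006.
Meox2: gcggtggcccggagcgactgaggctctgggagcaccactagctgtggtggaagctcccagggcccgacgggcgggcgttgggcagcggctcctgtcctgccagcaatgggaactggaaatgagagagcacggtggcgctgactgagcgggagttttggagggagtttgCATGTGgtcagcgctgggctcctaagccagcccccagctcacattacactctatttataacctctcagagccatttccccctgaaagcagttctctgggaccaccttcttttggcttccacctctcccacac
Pax7: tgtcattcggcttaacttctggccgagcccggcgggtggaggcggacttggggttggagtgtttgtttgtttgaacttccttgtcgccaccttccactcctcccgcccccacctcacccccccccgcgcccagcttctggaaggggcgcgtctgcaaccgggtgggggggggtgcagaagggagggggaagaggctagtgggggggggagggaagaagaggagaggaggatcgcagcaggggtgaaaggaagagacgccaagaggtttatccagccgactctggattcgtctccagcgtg
Met: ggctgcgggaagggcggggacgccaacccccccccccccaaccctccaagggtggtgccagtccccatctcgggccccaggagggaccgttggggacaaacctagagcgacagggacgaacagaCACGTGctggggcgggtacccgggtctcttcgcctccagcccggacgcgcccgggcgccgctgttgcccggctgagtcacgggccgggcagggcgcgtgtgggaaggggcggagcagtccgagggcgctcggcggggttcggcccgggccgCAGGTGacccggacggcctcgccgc

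The window of Meox2 held 1 E-box, CATGTG, which begins 82 bases before the start. That of Met held 2, CACGTG beginning 126 bases before the start and CAGGTG beginning 25 bases after it, that of Msx1 held 1 (CACCTG), and those of Pax7 and Tcf21 held 0. Of 32851 promoters of this length, 72.3% held an E-box. The letters ACATCTG, the core of the site described for RP58, were searched on both strands and overlap the E-box. They were in 0 of the 5 windows and in 4.43% of all promoters. Its shorter core CATCTG was likewise in 0 of 5, against 17.2% of all promoters, and the homeodomain core TAATTA was in 0 of 5, against 5.29%. These counts describe the letters of the windows alone.

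Pax3 and Pax7 are the paired box factors that keep embryonic and later muscle progenitors, and Pax7 marks satellite cells. Pax7 was read at 5.96 and 6.27 by 1 probe set and at 5.83 and 6.12 by the other, differences of 0.31 and 0.30. These come from different source sequences and differed from each other by 0.0069, although both lay close to the floor, and the size was 1.1 times the SD between probe sets. Of all genes, 14.2% had a higher difference than Pax7. Pax3 was at 6.84 and 6.93 on its only probe set above the floor, a difference of 0.10. Its other probe sets, at 4.74 and 4.85 and at 4.04 and 3.87, lay under the floor on both arrays and differed by 0.11 and -0.17. Neither gene passed the size rule, and the difference of Pax7 was 0.21 above that of Pax3, less than the SD between probe sets. Of 12 Schwann cell and neural crest genes, which mark other tissues that make Pax3, 0 were higher and 1, Fabp7 (-0.70), was lower. Over all genes, 3.83% were higher and 6.51% lower. The median of these 12 genes was 0.12. Their log2 summed signal was 10.57 and 10.75, and Foxd3 was under the floor on both arrays.

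**Figure D2:**
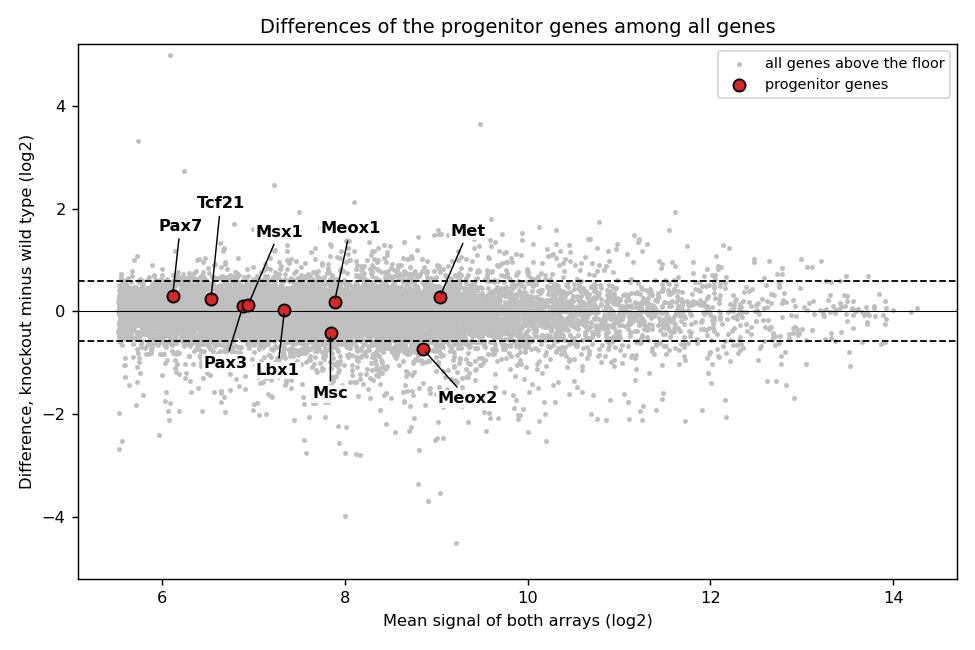
Difference between the arrays (knockout minus wild type, log2) against the mean signal of both arrays (log2) for all 14093 genes above the floor (grey) and the 9 progenitor genes (red, named). Dashed lines mark the 1.5-fold rule at 0.58 to either side. Only Meox2 of the 9 lies beyond a line, and Msc is the other gene below 0. Scaled to the median of the poly-A controls, Meox2 would be at 0.013.

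Lbx1, a homeobox factor of migrating progenitors, gave probe sets that did not match. The brighter was at 7.33 and 7.35, a difference of 0.03, and the other at 6.59 and 6.24, a difference of -0.35. They differed from each other by 0.37, more than the median of 0.21 for all such genes, so a direction for Lbx1 could not be given.

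Met, the receptor for Hgf, was at 8.90 on the wild-type-labelled array and 9.18 on the knockout-labelled array, a difference of 0.28 (1.21-fold) that equalled the SD between probe sets. Its other probe set was at 4.75 and 5.18, a difference of 0.43 with both signals under the floor. Of all genes, 16% had a higher difference than Met. The ligand gene Hgf was at 6.85 and 6.68, a difference of -0.17, and its other probe sets, at 0.30 and -0.011, were under the floor. Gab1, the docking protein that carries the Met signal, differed by 0.19 at its brightest probe set (8.82 and 9.01) and by 0.05 and -0.07 at others.

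Of 27 genes of Hgf and Met signalling, 4 were higher and 1 lower by the size rule. The shares over all genes were 3.83% and 6.51%. The median of the list was -0.0068. The higher ones were Hpn (1.07), which encodes the protease hepsin, Hgfac (0.95), the protease that activates Hgf, Mst1 (0.76), the Hgf-like ligand of the related receptor Mst1r, and Spint2 (0.72), an inhibitor of those proteases. Hgfac was at 9.25 and 10.20, Hpn at 7.31 and 8.37, and Mst1 at 8.28 and 9.04. The probe sets of Spint2 disagreed, with 0.30 at the other one. Hpn, Hgfac and Mst1 are made mainly by liver. The lower gene was Ranbp9, whose scaffold protein binds Met, at -0.97 on its brighter probe set and -0.59 on the other. Without _s_at, _x_at and _a_at probe sets 2 genes of the list were higher, and with a 2-fold rule 1 was higher and 0 lower.

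The markers of liver and lung epithelium, which also make Met, differed in the same direction as Met. In liver, 17 of 17 genes were above 0 (49.4% of all genes), led by Hpx (1.32) and Apoc1 (1.07). The log2 summed liver signals were 16.69 and 17.27 on the wild-type- and knockout-labelled arrays. Among lung genes, 4 of 11 were higher and 0 lower (3.83% and 6.51% of all genes), and their median was 0.42. The list was led by Sftpc (3.64) and Ager (1.24), and all 11 were above 0, the smallest at 0.12. The log2 sums were 11.05 and 12.26. Sftpc, at 7.65 on the wild-type-labelled and 11.30 on the knockout-labelled array, weighs heavily in these sums. Its other probe set was under the floor on both arrays. Scgb1a1 and Nkx2-1 lay under the floor on both arrays. The part of liver or lung RNA in the Met value was not tested.

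Among 12 genes of progenitor migration above the floor, which include Hgf and Gab1 from above, 1 was lower and 0 higher (6.51% and 3.83% of all genes). The lower one was the ephrin receptor gene Epha4 (-0.78), and another of its probe sets above the floor was at -0.08. With the mean over probe sets, and with the floor at the 60th percentile, 0 genes of this list were lower. Cxcr4, the chemokine receptor of migrating progenitors, was at 5.97 and 5.87, a difference of -0.10, and its ligand gene Cxcl12 at 9.16 and 9.21, a difference of 0.05. The median of the list was 0.02.

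Msx1, a homeobox repressor of differentiation, was at 6.88 and 7.00 on its brighter probe set, a difference of 0.12. Its other probe set was under the floor at 4.96 and 4.84, a difference of -0.12, so the sign was not shared. Msx2 lay under the floor on both arrays with both of its probe sets, at 4.45 and 4.48 for the brighter, and Lbx2 at 4.82 and 5.14. Of 13 related homeobox, T-box and Sim genes above the floor, 1 was lower and 0 higher (6.51% and 3.83% of all genes). Their median was 0.06. The lower gene was Tbx1, a T-box factor of pharyngeal muscle precursors, at 7.91 on the wild-type-labelled array and 6.11 on the knockout-labelled array, a difference of -1.80 (3.48-fold) from its only probe set. With the mean over probe sets 2 genes of the list were lower, the other being Six4, a homeobox factor of muscle precursors. Its brightest probe set differed by -0.19, and another, at 6.36 and 4.76 (the latter signal under the floor), by -1.60. Without _s_at, _x_at and _a_at probe sets Tbx1 was not read, and the 1 lower gene was Six4. Among the other 12, Sim1 was at 0.57, Sim2 at 0.46 and Msx3 at 0.33.

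Msc, the bHLH repressor MyoR, was at 8.05 on the wild-type-labelled array and 7.63 on the knockout-labelled array, a difference of -0.42 (1.34-fold) from its only probe set. This was 1.52 times the SD between probe sets but within the size rule, and 11.3% of all genes had a lower difference. Tcf21, a close relative, differed by 0.25 on its brighter probe set (6.41 and 6.66) and by 0.04 on the other (6.07 and 6.11). Mesothelium, which also makes Tcf21, had 4 of 15 genes higher and 0 lower (3.83% and 6.51% of all genes). The list had a median of 0.45 and was led by Krt19 (1.12) and Krt7 (0.75). Of the 15, 13 were above 0 (49.4% of all genes) and 2 below, namely the mesothelial factor genes Tbx18 (-0.43) and Wt1 (-0.12). The log2 summed signal of the list was 13.67 and 14.19, all 15 markers lay above the floor, and their part in the Tcf21 value was not tested.

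The bHLH relatives and partners of Msc and Tcf21 were unequal. Of 22 above the floor, 2 were higher and 3 lower (3.83% and 6.51% of all genes), and the median was 0.03. Lower were the muscle factors Myf6, at 10.24 and 7.78 (-2.46), and Myf5, at 7.04 and 5.10 (-1.94, the latter signal under the floor), while the partner gene Tcf4 was at -0.67. Myod1 was at 7.25 and 7.07 (-0.18) and Myog at 9.13 and 9.22 (0.09). The higher genes were Id3 (0.78) and Id1 (0.67), inhibitors of this class. The E protein genes, whose products pair with tissue-specific members of the class, did not differ alike. Tcf4 had 5 probe sets above the floor from -0.71 to -0.03. Tcf12 was at -0.36 on its brightest, and its others above the floor ran from -0.26 to 0.07. Tcf3 was at 0.40 on its brightest and at 0.23 on its other probe set above the floor. Tcf15, the somite factor paraxis, was at 0.11, Twist1 at -0.18 and Twist2 at 0.10.

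Other markers of muscle progenitors and satellite cells lay on both sides of 0. Of all genes, 49.4% were above 0, and of these markers 17 were below and 9 above. Of these 26, 2 were lower (Myf5 and Chodl, -0.74), 1 was higher (Sdc4, 0.63), and the median was -0.10. Over all genes, 6.51% were lower and 3.83% higher. The signal of Myf5 on the knockout-labelled array (5.10) lay under the floor, and with the floor at the 60th percentile 1 gene was lower. With the mean over probe sets, and without _s_at, _x_at and _a_at probe sets, 3 genes were lower. Six4, described above, is also in this list, at -0.19 on its brightest probe set and -1.60 on another. Sdc4, a heparan sulphate proteoglycan of satellite cells, was at 9.74 and 10.37, and its other probe set differed by 0.63 as well. Calcr, Sox8, Dmrt2 and Sox15 were under the floor on both arrays. Itm2a, a known Pax3 target, was at -0.18, and Fgfr4, a Pax3 target of myoblasts, at 0.08.

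A pair of mesenchymal transcription factors of the connective tissue list differed in opposite directions. Prrx1, a homeobox factor of limb and body wall mesenchyme, was at 8.94 and 7.84 (-1.10) on its brightest probe set, and its other 3 probe sets above the floor ran from -0.65 to -0.38. Osr1, a zinc finger factor of muscle connective tissue, was at 7.91 and 8.95 (1.04) on its only probe set. Prrx1 and Osr1 had the lowest and the highest difference of the 16 genes of that list, and neither is a member. A link to the differences of Meox2 (-0.74) and Tcf21 (0.25) was not tested.

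**Figure D3:**
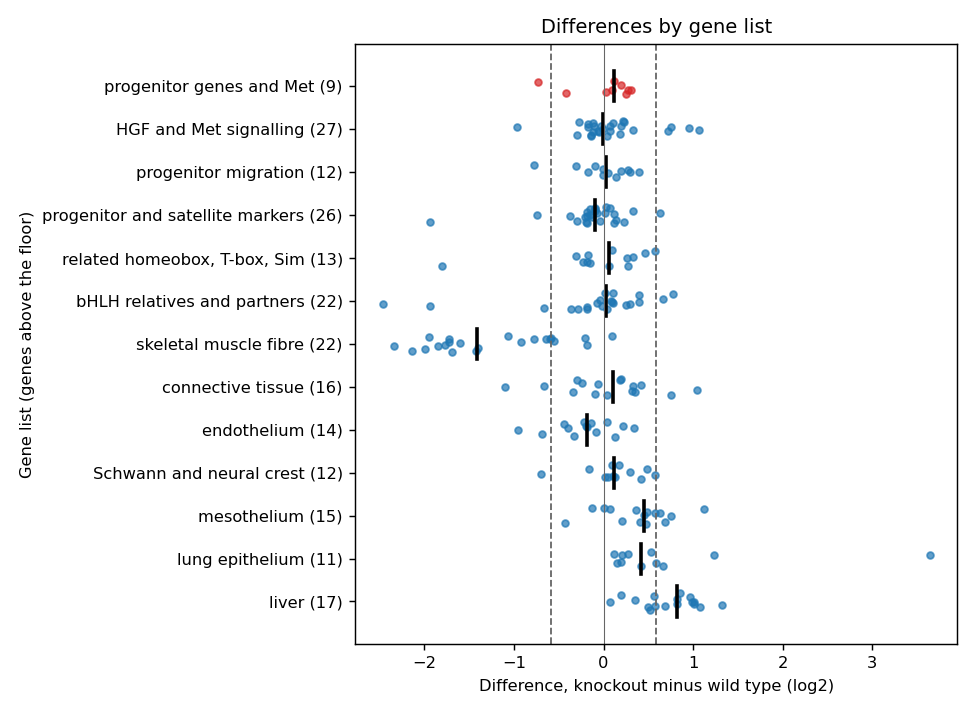
Difference between the arrays (knockout minus wild type, log2) of each gene above the floor (points) in the 9 progenitor genes (red) and 12 other gene lists (blue), with the number of genes in brackets, black bars at medians and dashed lines at the 1.5-fold rule. Points are spread vertically for visibility only. The progenitor genes have a median of 0.12, between muscle fibre genes at -1.41 and liver genes at 0.82. Scaled to the median of the poly-A controls, every value is 0.75 higher.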

How the data were processed

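Total RNA was hybridised to Affymetrix mouse arrays, and per the design text in the labels the authors computed signals with RMA, which corrects background, equalises distributions between arrays by quantiles and summarises each probe set. The submitters' processing notes name Affymetrix Expression Console 1.1. The deposited values are thus log2 signals, and RMA compresses differences of dim probe sets. Whether these arrays were normalised alone is not stated in the labels.

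Of 45101 probe sets, 34945 had 1 gene symbol in GEO's platform annotation, 932 several, 9160 none here and 64 were controls. Only the first kind was used. Genes (14093) were read from the brightest probe set with a mean above the 40th percentile. Analyses used Python 3.11.15, pandas 2.3.3 and statsmodels 0.14.6, and the code was tested on simulated data. Alternatives were the mean over probe sets, no floor, a higher floor (60th percentile), median or loess centring (fraction 0.3), scaling to 24 poly-A control probe sets, leaving out _s_at, _x_at and _a_at probe sets, and a 2-fold rule.

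Named genes were all members, up to 6 members of each other list past the size rule, and a fixed set of partners (the ligand, adaptors, bHLH partners and myogenic factors); others (Xist, Six4, Tbx18, Wt1, Sim1, Sim2, Msx3, Itm2a, Fgfr4, and markers under the floor) were named after their values were seen. The members and lists were chosen with earlier results of these data known. The number of arrays limits the precision.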

Additional observations from a re-analysis of the deposited data

How the results depend on the processing

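The count of 1 member lower and 0 higher was the same with the mean over probe sets, with no floor, with a floor at the 60th percentile (7 members read), with either centring and without _s_at, _x_at and _a_at probe sets (8 members read), and over these the median of the members ran from 0.10 to 0.14. Without those probe sets, 1 member probe set in place of 2 passed the size rule, since 1 of the Meox2 pair was left out, and Lbx1 stood at -0.35. With the 2-fold rule, 0 members and 0 member probe sets passed, beside 2.31% of all genes lower and 0.908% higher. The 24 poly-A control probe sets, several of which read the same control RNA, were all lower on the knockout-labelled array, from -1.17 to -0.46. Scaling to their median moved the median of all genes to 0.74. Then 0 members were lower and 7 higher, 9 member probe sets passed, the median of the members was 0.87 and Meox2 was at 0.013, while 70.9% of all genes were higher. Among the counts of the 12 other lists, the mean over probe sets moved 3 of the lower and 1 of the higher counts by more than 1.5 times, the 60th percentile floor 2 of the lower, leaving out _s_at, _x_at and _a_at probe sets 1 of the lower and 3 of the higher, and the 2-fold rule 6 of the lower and 7 of the higher. On the poly-A scale all 12 of the higher counts moved, to 22 for Hgf and Met signalling and 17 for satellite cell markers, as did 6 of the lower. No floor and either centring moved 0 of these counts. With the mean over probe sets, the median of the muscle fibre genes was -1.09 in place of -1.41. No paired analysis was possible because each genotype has 1 array. Probe sets near or under the floor (Pax7, and the dim probe sets of Pax3, Msx1 and Met) have compressed differences.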
